A study of Homo sapiens with 12 samples.

Results

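Interferons are read by cells through paired receptor chains, the Janus kinases bound to them and STAT transcription factors, and 9 genes of this relay were followed in A172 cells after siRNAs against uc.110. The genes were IFNAR1, IFNAR2, IFNGR1 and IFNGR2 (receptor chains), JAK1, JAK2 and TYK2 (kinases), and STAT2 and IRF1 (transcription factors). They were chosen by name as protein-coding entries of the deposited table, the shortest where a name had several, a rule that itself uses no measured value. Of the 9 genes, 8 had a usable interval, out of 44333 gene intervals used in all. A172 is an established human glioblastoma cell line, described in the labels as wild type in genotype. There were 3 groups of 4 libraries: one received a scrambled control siRNA, and the others one of 2 siRNAs aimed at uc.110, called siRNA-1 and siRNA-2. All 3 groups therefore carried an siRNA and the Lipofectamine reagent (3 µL of 20 µM siRNA and 9 µL of reagent per well for 6 h), and none was left without transfection. RNA was collected on day 2 after transfection. uc.110 is an ultraconserved region, a stretch of genome that is identical in human, mouse and rat, and the study asked which genes are deregulated when it is knocked down.

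Type I interferons bind IFNAR1, which holds TYK2, and IFNAR2, which holds JAK1. The kinases then phosphorylate STAT proteins, STAT2 among them, and the complex ISGF3, which holds STAT2 and IRF9, binds the interferon-stimulated response element (ISRE) in front of antiviral genes. Interferon gamma binds IFNGR1 and IFNGR2, which hold JAK1 and JAK2, and acts through STAT dimers that bind the gamma-activated site (GAS), with IRF1 as an early target that is itself a transcription factor. In glioma cells, as in most nucleated cells, the receptors and kinases are made at rest, whereas many of the genes downstream are made in quantity only after an interferon signal.

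The promoters of the 2 transcription factors are shown because the levels of these genes are themselves set by interferon signals, and because one window holds a GAS. Both come from RefSeq (GRCh38.p14), run 5′ to 3′ on the gene's own strand, and span 250 bases before to 50 bases after the start site. The IRF1 promoter is chr5:132490724-132491023 on the minus strand, and the STAT2 promoter is chr12:56360058-56360357 on the minus strand. Capitals mark the GAS match TTCCCCGAA, which begins 124 bases before the IRF1 start, and the STAT2 window has no match to either motif.
IRF1: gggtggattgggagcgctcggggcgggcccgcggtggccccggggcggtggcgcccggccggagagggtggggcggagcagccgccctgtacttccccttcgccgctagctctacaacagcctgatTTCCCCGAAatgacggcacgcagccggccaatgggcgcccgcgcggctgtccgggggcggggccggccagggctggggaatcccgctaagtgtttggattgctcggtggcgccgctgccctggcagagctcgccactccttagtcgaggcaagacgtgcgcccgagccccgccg
STAT2: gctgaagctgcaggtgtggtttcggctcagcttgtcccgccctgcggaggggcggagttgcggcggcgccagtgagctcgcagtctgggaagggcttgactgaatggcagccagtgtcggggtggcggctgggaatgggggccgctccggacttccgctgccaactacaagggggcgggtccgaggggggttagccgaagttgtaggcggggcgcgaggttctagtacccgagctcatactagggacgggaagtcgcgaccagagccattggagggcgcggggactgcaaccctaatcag

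Promoter entries were matched for 8 of the 9 genes, all but IFNAR2. The GAS was searched as TTCNNNGAA and the ISRE as GAAANNGAAA, each on 2 strands. The GAS letters occurred in 1 of the 8 promoters and in 7.88% of 27305 RefSeq promoters of the same length. None of the 8 held the ISRE letters, which occurred in 3.65% of all promoters. Of the promoters matched for a list of genes known as ISGF3 targets, 11 of 13 held the ISRE letters, and of those matched for known IRF1 and interferon gamma targets 7 of 12 did. A match is a description of letters, and its absence says only that the letters are not in this window.

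Each library held 43376685 to 54515615 counts over the gene intervals used. The targeted region gave few reads: uc.110 (chromosome 2, 236162738 to 236162980, hg38) held 0 to 6 reads per library, which sum to 11 for the scrambled group, 5 for siRNA-1 and 7 for siRNA-2. A knockdown was therefore not detectable at this depth. In most libraries 1.8% to 5.4% of reads were 45S ribosomal RNA, but siRNA-1 replicate 3 had 15.48% and siRNA-2 replicate 2 had 9.08%. Intervals covered by a single library numbered 1556 for scrambled replicate 1 and 86 to 167 for each other library. Of 10 glial and glioma markers, 9 had a median of at least 10 reads, and S100B had 1 read in all 12 libraries together. Nothing in the labels ties the libraries to separate cultures, and p-values therefore reflect only how far these samples spread, which may be technical. In bulk RNA, fewer cells that make a transcript and less transcript per cell cannot be told apart.

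Levels are CPM, counts scaled to a common library size, over the whole gene span, introns included, with sizes adjusted by the TMM method, so they are compared between libraries and not between genes. A gene was called when its edgeR quasi-likelihood test gave a Benjamini-Hochberg adjusted p under 0.05 over 24865 tested genes. Calls were common in these data: 53.5% of tested genes were called with siRNA-1 against scrambled (28.6% higher, 24.9% lower), and 56.1% with siRNA-2 (29.9% higher, 26.2% lower). Between siRNA-2 and siRNA-1, 32.6% were called (15.8% higher, 16.8% lower). For the mean of both siRNAs against scrambled the share was 57.9% (30.6% higher, 27.3% lower). Of the 8 genes, 5 were called higher (3 without scrambled replicate 1) and 1 lower with siRNA-1, and 5 higher and 2 lower with siRNA-2. For the mean of both siRNAs 5 were higher and 1 lower, and between the siRNAs 1 was higher and 3 were lower with siRNA-2. Among the 9923 tested genes with an average log2 CPM of at least 4, where 7 of the 8 lie, 73.2% and 75.5% were called with siRNA-1 and siRNA-2. The share was 50.4% between the siRNAs, so the numbers called among the 8 do not set them apart. By size of change, STAT2 exceeded the rest of the 8. It changed more than 95.6% of tested genes with siRNA-1 and more than 95.4% with siRNA-2, whereas no other gene of the 8 passed the 51.4th percentile in either comparison.

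STAT2, the STAT particular to type I and type III interferon signalling, was the gene with the largest change of the 8. The gene lies on chromosome 12, 56341597 to 56360253, minus strand, and its interval overlaps no other interval used. Its level was 51.4, 38.8, 34.5 and 34.3 CPM with the scrambled siRNA, 103.2, 97.3, 89.1 and 96.1 after siRNA-1, and 93.8, 110.0, 98.6 and 106.3 after siRNA-2. Every siRNA library was above every scrambled one, and scrambled replicate 1 stood highest in its group. The means were 39.8 ± 8.04 CPM (SD, n = 4) with the scrambled siRNA, 96.4 ± 5.79 after siRNA-1 and 102.2 ± 7.30 after siRNA-2. STAT2 rose 2.43-fold with siRNA-1 (log2 fold change 1.28, SE 0.12, edgeR adjusted p = 1.03e-05) and 2.57-fold with siRNA-2 (1.36, SE 0.12, edgeR adjusted p = 5.29e-06). Without scrambled replicate 1 the log2 fold changes were 1.40 and 1.49. The 2 siRNAs overlapped, with a log2 difference of 0.08 (SE 0.12, edgeR adjusted p = 0.656).

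**Figure D1:**
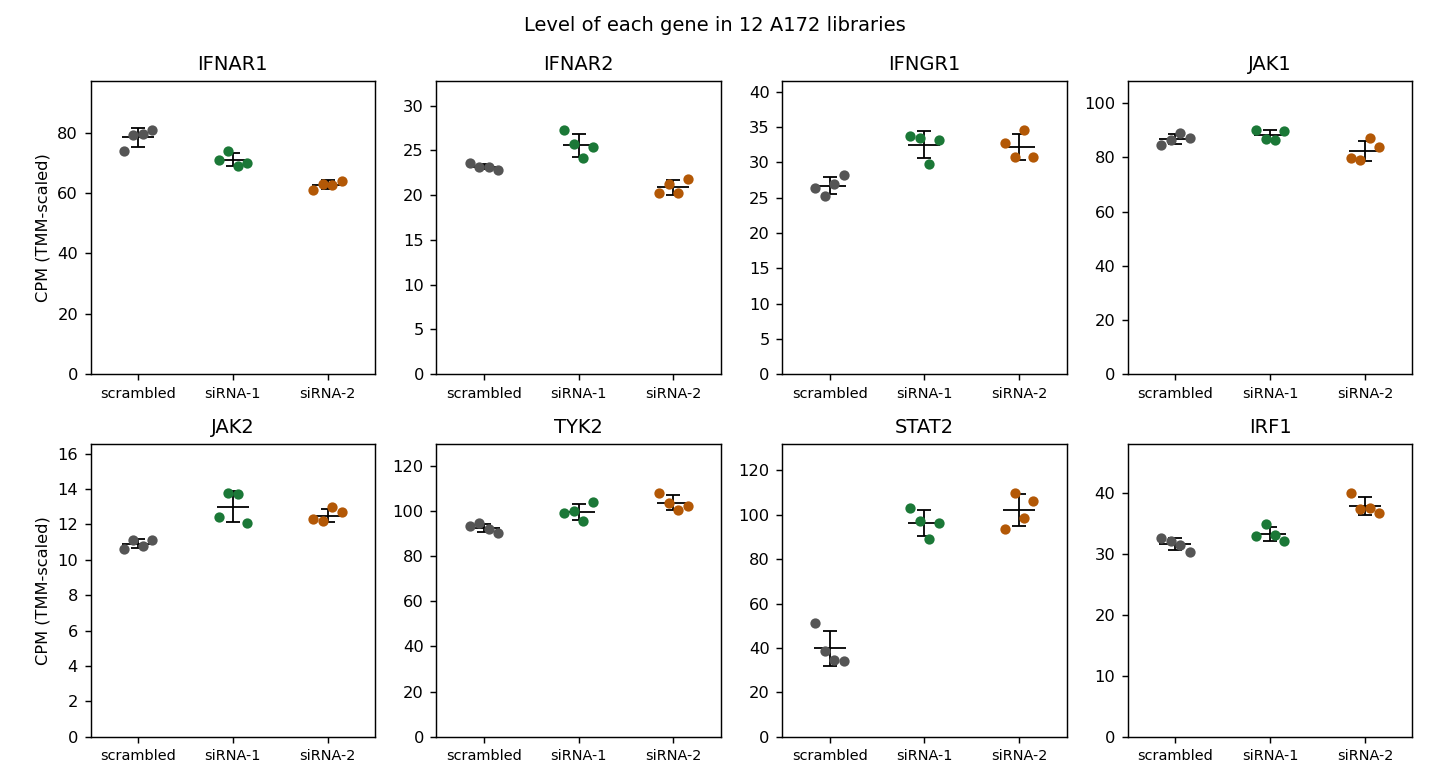
Level of each gene with a usable interval in the 12 libraries, in TMM-scaled CPM on axes that start at 0; dots are libraries, long bars the mean and short bars the SD of 4 libraries. STAT2 lies between 34.3 and 51.4 CPM in the scrambled libraries and between 89.1 and 110.0 with the siRNAs, while the other genes stay within narrow ranges.

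The high scrambled replicate 1 was shared by genes downstream of STAT2. ISG15, a ubiquitin-like modifier made under ISGF3, was at 86.7 CPM in scrambled replicate 1 and at 35.0 to 54.7 in the other scrambled libraries. USP18, a protease that removes ISG15 and blocks IFNAR2 signalling, was at 28.2 CPM there and at 12.4 to 16.4 in the other three. What the intervals covered by that library alone have to do with these levels was not tested.

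IRF1, a transcription factor that acts downstream of interferon gamma, rose with siRNA-2 and did not pass the test with siRNA-1. Its interval is chromosome 5, 132480854 to 132490789, minus strand, with no other interval used across it. Its level was 32.7, 32.1, 31.5 and 30.4 CPM with the scrambled siRNA, 32.9, 34.9, 33.2 and 32.2 after siRNA-1, and 40.1, 37.4, 37.5 and 36.7 after siRNA-2. The siRNA-1 libraries overlapped the scrambled ones, and all siRNA-2 libraries lay above both other groups. The log2 fold change was 0.07 with siRNA-1 (SE 0.05, edgeR adjusted p = 0.192) and 0.26 with siRNA-2 (SE 0.05, edgeR adjusted p = 2.32e-05). The siRNAs differed by 0.19 (SE 0.05, edgeR adjusted p = 0.00211).

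Among the receptors, IFNAR1, the chain that holds TYK2, fell with both siRNAs. It lies on chromosome 21, 33324395 to 33360361, plus strand, and overlaps no other interval used. Its level was 73.8, 79.3, 79.4 and 80.9 CPM with the scrambled siRNA, 71.0, 73.9, 69.1 and 70.0 after siRNA-1, and 60.9, 63.1, 62.8 and 64.1 after siRNA-2. Only siRNA-1 replicate 2 and scrambled replicate 1 crossed, and the siRNA-2 libraries were the lowest of all 12. IFNAR1 fell by 0.14 on the log2 scale with siRNA-1 (SE 0.04, edgeR adjusted p = 0.00296) and by 0.32 with siRNA-2 (SE 0.04, edgeR adjusted p = 9.61e-08). It fell further with siRNA-2 than with siRNA-1, by 0.18 (SE 0.04, edgeR adjusted p = 0.000784), so its order was scrambled, siRNA-1, siRNA-2, each step passing the test.

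IFNAR2, the chain that holds JAK1 and binds USP18, moved in opposite directions with the 2 siRNAs. It lies on chromosome 21, 33229896 to 33265664, plus strand, and shares 0.03 kb with the lncRNA IL10RB-DT, whose reads come to 2.79% of its own. Its level was 23.6, 23.1, 23.2 and 22.8 CPM with the scrambled siRNA, 27.3, 25.7, 24.2 and 25.4 after siRNA-1, and 20.2, 21.3, 20.2 and 21.8 after siRNA-2. The 3 groups did not overlap: every siRNA-1 library was above, and every siRNA-2 library below, all scrambled ones. The log2 fold change was 0.15 with siRNA-1 (SE 0.05, edgeR adjusted p = 0.0142), and IFNAR2 fell by 0.15 with siRNA-2 (SE 0.05, edgeR adjusted p = 0.0115). Its difference between the siRNAs, -0.30 (SE 0.05, edgeR adjusted p = 3.8e-05), was the largest of the 8 genes on the log2 scale. The rise with siRNA-1 was lost without scrambled replicate 1 (0.12, edgeR adjusted p = 0.0584) and without siRNA-1 replicate 1 (0.10, edgeR adjusted p = 0.0944). For the mean of both siRNAs, IFNAR2 came to 0.00 (edgeR adjusted p = 0.969).

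IFNGR1, the ligand-binding chain of the interferon gamma receptor, rose with both siRNAs. The interval is chromosome 6, 137197484 to 137220351, minus strand, clear of other intervals used. Its level was 26.4, 25.2, 27.0 and 28.2 CPM with the scrambled siRNA, 33.7, 33.5, 29.7 and 33.2 after siRNA-1, and 32.7, 30.8, 34.6 and 30.7 after siRNA-2. All siRNA libraries exceeded all scrambled ones, and the lowest of them was siRNA-1 replicate 3, the library with the most ribosomal RNA. IFNGR1 rose by 0.29 with siRNA-1 (SE 0.05, edgeR adjusted p = 6.46e-05) and by 0.27 with siRNA-2 (SE 0.05, edgeR adjusted p = 0.000106), a 1.22-fold and a 1.21-fold change. The siRNAs differed by -0.02 (SE 0.05, edgeR adjusted p = 0.862).

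IFNGR2, the second chain of that receptor, could not be measured. The only interval of that name starts at position 5405 of chromosome 21 and ends at 33479348, a span of 33473.9 kb, while the RefSeq gene runs from 33402882 to 33437516. That interval also covers IFNAR2, IL10RB and IFNAR1 and held 1257046 to 9543677 reads per library, so it gives no value for IFNGR2.

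**Figure D2:**
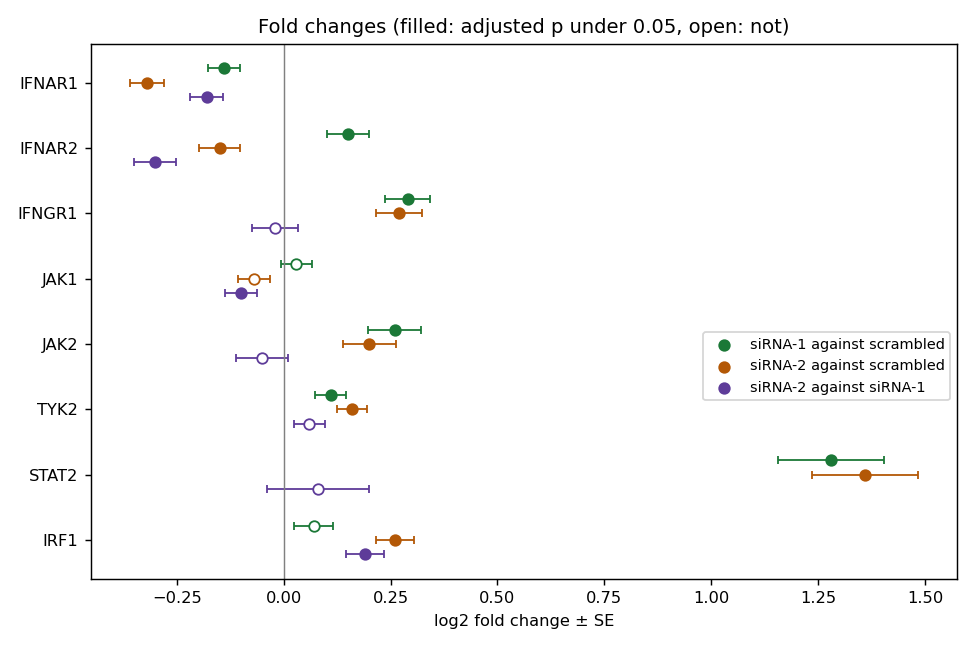
Log2 fold change of each gene with a usable interval for each siRNA against scrambled and between the siRNAs (siRNA-2 minus siRNA-1); dots are edgeR estimates from 4 against 4 libraries, bars are ± 1 SE, and filled dots have an adjusted p under 0.05. STAT2 stands at 1.28 and 1.36, IFNAR2 lies on either side of 0 at 0.15 and -0.15, and all other estimates are within -0.32 and 0.29.

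The kinases changed little in size. TYK2, which pairs with IFNAR1, lies on chromosome 19, 10350418 to 10380572, minus strand, and overlaps no other interval used. Its level was 93.1, 94.8, 91.9 and 90.4 CPM with the scrambled siRNA, 98.9, 100, 95.3 and 103.9 after siRNA-1, and 108.1, 103.7, 100.5 and 102.3 after siRNA-2. All siRNA libraries were above all scrambled ones, and the siRNA groups overlapped. TYK2 rose by 0.11 with siRNA-1 (SE 0.04, edgeR adjusted p = 0.0168) and by 0.16 with siRNA-2 (SE 0.04, edgeR adjusted p = 0.000407). The call with siRNA-1 was lost in 7 of 17 alternatives, among them without scrambled replicate 1 and without siRNA-1 replicate 2 or 4, while that with siRNA-2 held in all 17. The siRNAs differed by 0.06 (SE 0.04, edgeR adjusted p = 0.241).

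JAK1, which pairs with IFNAR2 and IFNGR1, did not pass the test against scrambled with either siRNA. Its span is chromosome 1, 64833224 to 65067746, minus strand, and 0.37 kb at one end is shared with RAVER2, whose reads come to 23.78% of those of JAK1. Its level was 84.5, 86.3, 89.0 and 87.2 CPM with the scrambled siRNA, 90.2, 87.0, 86.5 and 89.7 after siRNA-1, and 79.7, 79.2, 87.2 and 84.0 after siRNA-2. The 3 groups overlapped. The log2 fold change was 0.03 with siRNA-1 (SE 0.04, edgeR adjusted p = 0.575) and -0.07 with siRNA-2 (SE 0.04, edgeR adjusted p = 0.107). Between the siRNAs JAK1 was lower with siRNA-2, at a log2 difference of -0.10 (SE 0.04, edgeR adjusted p = 0.0453), a call lost in 12 of 17 alternatives.

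JAK2, the kinase bound to IFNGR2, rose with both siRNAs as counted, but most of its interval is shared with another gene. It lies on chromosome 9, 4984390 to 5157993, plus strand, and 166.02 kb of it overlap INSL6 on the other strand. The INSL6 interval held 88.89% as many reads as that of JAK2, and reads of the 2 genes cannot be told apart. The level was 10.6, 11.1, 10.8 and 11.1 CPM with the scrambled siRNA, 12.4, 13.8, 13.7 and 12.1 after siRNA-1, and 12.3, 12.2, 13.0 and 12.7 after siRNA-2. Every siRNA library was above every scrambled one. The rise was 0.26 with siRNA-1 (SE 0.06, edgeR adjusted p = 0.00115) and 0.20 with siRNA-2 (SE 0.06, edgeR adjusted p = 0.00702), and INSL6, which shares the reads, had 0.27 and 0.22. The siRNAs differed by -0.05 (SE 0.06, edgeR adjusted p = 0.568).

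Ratios within a library do not depend on how libraries were scaled, and they showed which pairs of genes moved unequally. They were tested by two-sided exact permutation tests over 4 against 4 libraries, whose smallest possible p is 0.0286. That p became 0.0367 after Benjamini-Hochberg adjustment over the 9 ratio comparisons made. Of these, 3 were with IL10RB, a gene picked for its small p, and no p is given for them. They still count in the adjustment, so 0.0367 is lower than it would be without them. The reads of IFNAR2 per read of IFNAR1 came to 0.296 ± 0.0162 (SD, n = 4) with the scrambled siRNA, 0.361 ± 0.0170 after siRNA-1 and 0.332 ± 0.00854 after siRNA-2. All siRNA libraries exceeded all scrambled ones, and the siRNA groups did not overlap (exact permutation adjusted p = 0.0367 in each comparison). The 2 siRNAs thus shared a higher ratio while IFNAR2 itself went up with one and down with the other.

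IL10RB, the chain shared by the interleukin-10 and type III interferon receptors, lies between IFNAR2 and IFNAR1 on chromosome 21 (33266361 to 33310187), and it rose while both receptor genes beside it changed less. It went from 28.2 CPM to 64.7 and 65.8, log2 fold changes of 1.20 (SE 0.04, edgeR adjusted p = 2.01e-17) and 1.22 (SE 0.04, edgeR adjusted p = 1.17e-17). Its reads per read of IFNAR2 were 1.22 ± 0.0339 with the scrambled siRNA, 2.53 ± 0.126 after siRNA-1 and 3.15 ± 0.0889 after siRNA-2 (n = 4 each). No 2 groups overlapped. IL10RB is named here because its p was among the smallest of its list, so its ratios are a description with no test. The short lncRNA IL10RB-DT, between IFNAR2 and IL10RB, had 14 to 20 reads per library with the scrambled siRNA, 14 to 66 after siRNA-1 and 15 to 55 after siRNA-2, groups that overlap. Its log2 fold change was 1.28 with siRNA-1 (SE 0.42, edgeR adjusted p = 0.0173) and 0.88 with siRNA-2 (SE 0.43, edgeR adjusted p = 0.0918).

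The kinase ratio, TYK2 per JAK1, was 1.07 ± 0.0375 with the scrambled siRNA, 1.13 ± 0.0319 after siRNA-1 and 1.26 ± 0.0914 after siRNA-2 (n = 4 each). Its exact permutation adjusted p was 0.143 with siRNA-1 and 0.0367 with siRNA-2. Between the siRNAs it was 0.0643, which did not pass.

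**Figure D3:**
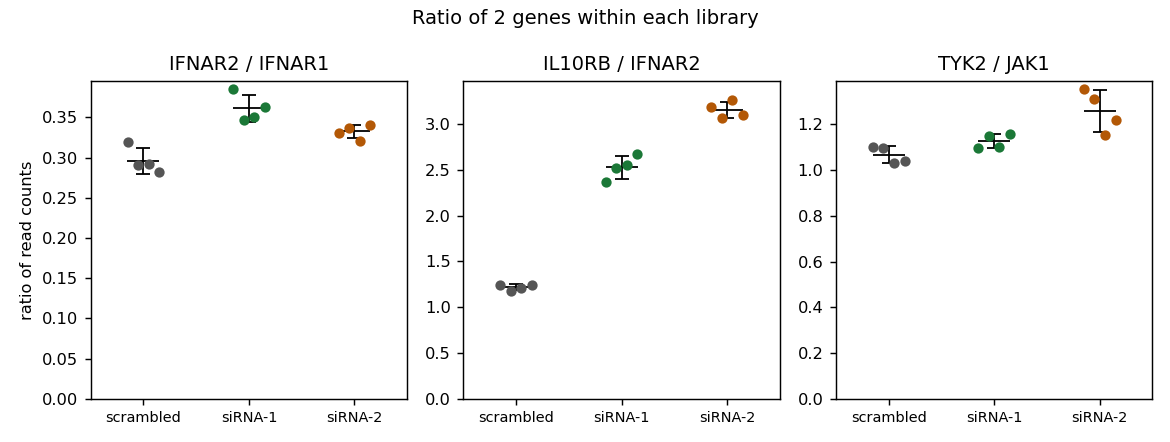
Ratio of the read counts of 2 genes within each library, on axes that start at 0; dots are libraries, long bars the mean and short bars the SD of 4 libraries. The ratio of IL10RB to IFNAR2 moves from 1.22 with the scrambled siRNA to 2.53 and 3.15, and that of IFNAR2 to IFNAR1 from 0.296 to 0.361 and 0.332.

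Few reads came from the interferon genes themselves, and none of the 12 listed passed the filter on low counts. IFNB1, the type I interferon most cells make first, had 2, 0, 0 and 0 reads with the scrambled siRNA, 3, 4, 3 and 2 after siRNA-1, and 3, 4, 6 and 6 after siRNA-2. The ratio of summed reads per library size was 6.02 for siRNA-1 (95% interval 1.34 to 55.3) and 8.85 for siRNA-2 (2.13 to 78.3), intervals that cover counting error only. The exact permutation p was 0.0571 and 0.0286, or 0.0571 and 0.0381 adjusted over 4 tests. Its only scrambled reads, 2 in number, were in scrambled replicate 1. That library was also highest for STAT2 in its group, and it alone covered 1556 intervals. What gave these 2 reads was not tested. IFNL1, a type III interferon, had 0 reads in every scrambled library, 2, 6, 3 and 6 after siRNA-1, and 8, 2, 1 and 6 after siRNA-2. Its 17 reads with each siRNA came to 5.68 and 5.28 times a floor of 3 counts over the scrambled group. The lower limit of the exact 95% interval of the ratio, which covers counting error only, was 4.14 and 3.84 (exact permutation p = 0.0286, adjusted p = 0.0381, for each). Only IFNB1 and IFNL1, the genes with the most reads of the 12, had permutation tests. Most of their reads were in siRNA libraries, so the choice drew on the values compared. Their permutation p-values and intervals are therefore a description. The adjustment over 4 tests does not cover that choice. IFNL3 had 0, 0, 1 and 0 reads with the scrambled siRNA, 0, 6, 3 and 3 after siRNA-1, and 1, 2, 1 and 3 after siRNA-2. With no filter on low counts, the edgeR test called IFNL1 higher with siRNA-1 (adjusted p = 0.00162) and siRNA-2 (adjusted p = 0.0017). It called IFNB1 higher with siRNA-2 (adjusted p = 0.0249) and no other of the 12 in these comparisons. That fit tested 39428 genes, and the share called among them is not given here. IFNG, IFNA1, IFNA2 and IFNA8 had 0 reads in all 12 libraries. IFNLR1, the private chain of the type III receptor, had 0 to 6 reads per library and was not tested.

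The other genes of the pathway were taken from lists by role, given as counts called and as the median log2 fold change beside the median of all tested genes, which was 0.01 in each comparison with scrambled. Each count is read against the 53.5% and 56.1% called among all tested genes with siRNA-1 and siRNA-2, and the 73.2% and 75.5% among genes of log2 CPM 4 or more. The 5 other STAT genes analysed here all rose with either siRNA, with a median of 0.35 and 0.59. STAT5A (0.69 and 0.90), STAT6 (0.41 and 0.70), STAT3 (0.28 and 0.20) and STAT5B (0.16 and 0.28) carry signals of cytokines and growth factors. The interval of STAT5A overlaps those of STAT3 (4.41 kb) and STAT5B (1.88 kb), and STAT6 shares 2.58 kb with NAB2, so these values are uncertain. Of the 5 other IRF genes tested, 4 rose and 1 fell with siRNA-1, and 3 rose and 1 fell with siRNA-2. The fall with siRNA-2 was that of IRF5, and it was lost without scrambled replicate 4 (-0.11, edgeR adjusted p = 0.0689), siRNA-2 replicate 2 (-0.10, edgeR adjusted p = 0.0949) or siRNA-2 replicate 3 (-0.10, edgeR adjusted p = 0.0855). IRF3, which acts below the RNA sensors, had 0.57 and 0.59, IRF2, which competes with IRF1, 0.36 and 0.45, IRF8 1.32 and 1.58 from 0.198 CPM, and IRF5 -0.26 and -0.12. IRF3 shares 1.04 kb with BCL2L12 and IRF5 6.36 kb with TNPO3. IRF7 and IRF9, the latter a partner of STAT2, had no interval of the gene itself and were not analysed here.

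Of 20 genes tested from a list of other receptor chains and JAK3, 10 rose and 6 fell with each siRNA, with medians of 0.19 and 0.24. The 80% called is above the 53.5% and 56.1% among all tested genes and near the share among genes of log2 CPM 4 or more. Many genes of the list lie below that level, among them IL6R at 2.92 and JAK3 at 1.18. Neither share matches the list, so the count is not read as setting it apart. Besides IL10RB, IL15RA rose by 0.43 and 1.00, whereas IL13RA1 had -0.77 and -0.98 and IL6R, the interleukin-6 receptor, -1.65 and -1.83. Reads of IL6R are shared in part with SHE, over 13.1 kb, and those of IL15RA with LOC107984200, over 14.27 kb.

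Negative regulators moved both ways: of 19 tested, 9 rose and 4 fell with each siRNA, with medians of 0.22 and 0.10. The 68.4% called lies between the shares among all tested genes and among those of log2 CPM 4 or more. USP18, which was among the genes most like STAT2 below, rose by 2.41 (SE 0.21, edgeR adjusted p = 5.22e-06) and 2.58 (SE 0.21, edgeR adjusted p = 2.67e-06). Near copies of USP18 exist, so its reads could be split. SOCS1, which inhibits JAK kinases directly, went from 2.19 CPM to 6.14 with siRNA-1 and 3.77 with siRNA-2, and rose more with siRNA-1 (difference between the siRNAs -0.70, SE 0.11, edgeR adjusted p = 2.38e-05). It lies within the longer LOC105371082, whose reads cannot be told apart from it. SOCS3, which binds receptors of the interleukin-6 family, was at 54.5 to 55.8 CPM with the scrambled siRNA, 59.3 to 72.3 after siRNA-1 and 41.5 to 48.0 after siRNA-2. Like IFNAR2 it rose with siRNA-1 (0.23, edgeR adjusted p = 0.00167) and fell with siRNA-2 (-0.27, edgeR adjusted p = 0.000348). SH2B3, an adaptor that restrains JAK2, had 0.38 and 0.35. The phosphatase genes PTPN11 (-0.73 and -0.83) and DUSP3 (-0.51 and -0.40) fell. PTPN11 shares 52.09 kb with RPL6 and SH2B3 shares 20.08 kb with ATXN2.

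Genes for receptor trafficking and degradation were called higher in 7 of 10 and lower in 1 of 10 with siRNA-1, and in 5 and 1 with siRNA-2, with medians of 0.21 and 0.13. The 80% called with siRNA-1 is near the 73.2% among genes of log2 CPM 4 or more, and the 60% with siRNA-2 is below the 75.5%. These counts therefore do not set the list apart. PRKD2, a kinase that marks IFNAR1 for removal, had 0.76 and 0.82, and BTRC, the ubiquitin ligase subunit that binds the marked receptor, 0.73 and 0.80. PTPN12 had 0.18 and 0.31, and FBXW7, another ligase subunit, -0.53 and -0.15. The lower call of FBXW7 with siRNA-2 was lost without scrambled replicate 2 (-0.14, edgeR adjusted p = 0.0619), siRNA-2 replicate 3 (-0.10, edgeR adjusted p = 0.117) or siRNA-2 replicate 4 (-0.12, edgeR adjusted p = 0.0945). The number called lower with siRNA-2 was 2 without scrambled replicate 1 and with 3 libraries left out together. It was also 2 with DESeq2, with its size factors in edgeR, with the filter of 1 CPM and with protein-coding intervals only. These are transcript levels, and receptor protein was not measured.

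Downstream, all 16 ISGF3 targets rose with either siRNA, with a median of 2.27 and 2.76. ISG15 rose by 2.93 and 3.25, IFITM1 by 3.11 and 3.50, IFIT2 by 1.45 and 2.52, and MX1 by 0.87 and 1.15. Over the alternatives that leave out 1 library, 15 or 16 of the 16 passed with siRNA-1 and with siRNA-2. Between the siRNAs, 3 of the 16 (18.8%) were higher with siRNA-2 in the fit of all 12 libraries, near the 15.8% called higher among all tested genes. The count was 14 when only the 2 siRNA groups were fitted. It was 10 when scrambled replicate 1, siRNA-1 replicate 3 and siRNA-2 replicate 2 were left out together. The share called higher among all genes in these 2 fits is not given here. The IFITM1 interval lies within a longer one, LOC101059906, ISG15 shares 6.15 kb with CHESS3, and IFIT2 lies across LOC105378419 and GBP1 across LOC105378841, with which they share their reads. Of 14 tested targets of IRF1 and interferon gamma, 13 rose with siRNA-1 and all 14 with siRNA-2, with medians of 1.05 and 1.33, and none fell. Among these, CXCL10 had only 1 to 17 reads per library and ICAM1 17 to 61. Of the promoters matched for the list, 7 of 12 held the ISRE letters, and which interferon signal its genes follow was not tested. GBP1 had 1.12 and 1.29, GBP4 1.61 and 1.57, NLRC5, the activator of MHC class I genes, 0.98 and 1.38, and WARS1 0.81 and 1.08. Between the siRNAs 9 of the 14 (64.3%) were higher with siRNA-2, where 15.8% of all tested genes were called higher. Of tested genes of log2 CPM 4 or more, 50.4% were called in either direction. The guanylate-binding protein genes are near copies of one another, so reads could be split among them.

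**Figure D4:**
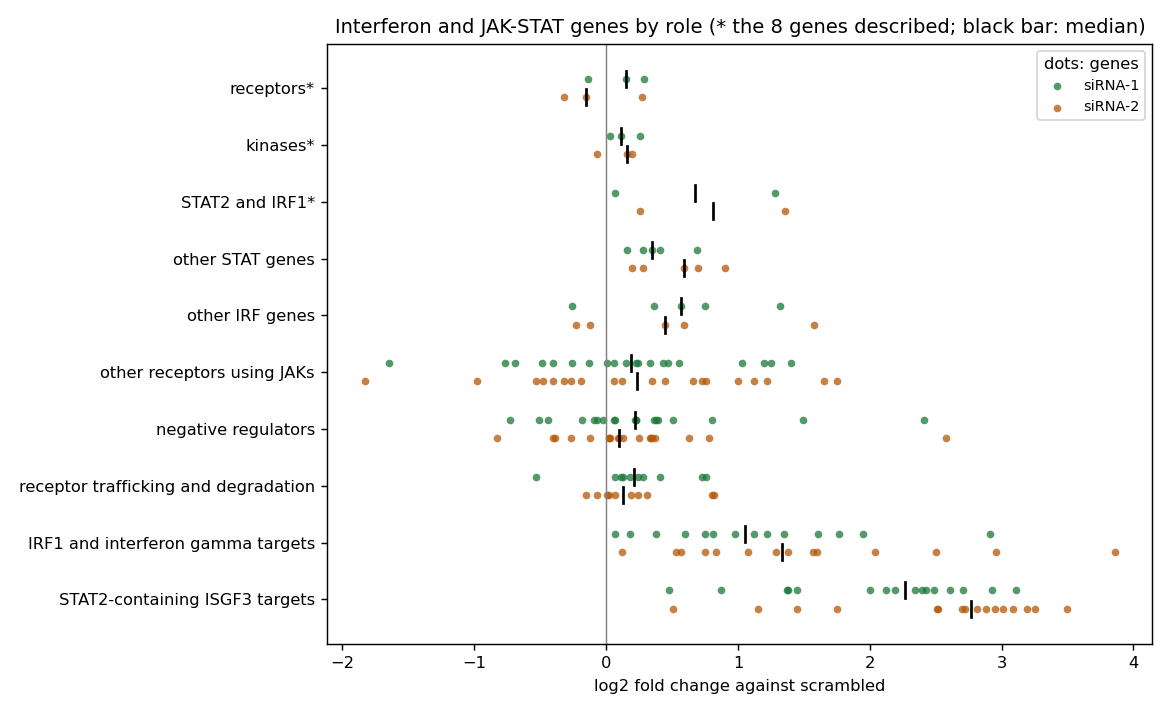
Log2 fold change against scrambled of the genes tested in each list by role, for siRNA-1 (upper row of each pair) and siRNA-2 (lower row); dots are genes, black bars the list's median, and an asterisk marks the rows of the 8 genes described singly. Medians are 2.27 and 2.76 for ISGF3 targets and 1.05 and 1.33 for IRF1 and interferon gamma targets, against 0.19 and 0.24 for the other receptors.

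For each of the 8 genes, the protein-coding genes most like it were sought among 12358 with an average log2 CPM of at least 1 by Pearson's r of log2 CPM over the 12 libraries. These r are a description, since libraries share groups, and the genes with the highest r of so many are high by choice. STAT2 was most like UBTF (r = 0.996), DPF1 (0.995) and USP18 (0.995), genes whose changes differed widely in size, from 0.27 for UBTF to 2.41 for USP18 with siRNA-1. IFNAR1 was most like RER1 (0.990), PHTF2 (0.986) and SERINC3 (0.985), and IFNAR2 like SNN (0.977), S100A3 (0.962) and PLPP5 (0.960). IFNGR1 was most like UQCC2 (0.971), FANCF (0.945) and SLC2A10 (0.941), and JAK2 like NUFIP2 (0.983), RLF (0.955) and PIP5K1A (0.952). TYK2 was most like HGS (0.966), WDR86 (0.960) and ZNF653 (0.954), of which HGS belongs to the receptor sorting machinery. JAK1 was most like ATP5MC1 (0.974), SLA2 (0.943) and HCRTR1 (0.936), and IRF1 like DGKA (0.969), DDIT3 (0.968) and ADAMTS6 (0.968). Several of these, among them UBTF, SNN, S100A3, SLA2, WDR86, UQCC2 and DDIT3, overlap an interval with more reads than their own. Among the 8 themselves, r ran from -0.91 for IFNAR1 with IRF1 to 0.84 for IFNGR1 with STAT2.

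Markers of other cell types moved with the groups in part, and their part in the results was not tested. The summed level of 10 glial and glioma markers ran from 4069.3 to 4341.0 CPM with the scrambled siRNA, from 3067.6 to 3385.2 after siRNA-1 and from 3532.5 to 3726.8 after siRNA-2. Most of this sum is VIM, an intermediate filament gene, which went from a mean of 2599.7 CPM to 1661.7 and 1920.4. The members moved both ways: of 9 tested, 3 rose and 3 fell with siRNA-1, and 4 rose and 3 fell with siRNA-2, with medians of 0.06 and -0.09. NES rose with siRNA-1 (0.23) and fell with siRNA-2 (-0.27), while GFAP (0.43 and 0.26) and OLIG2 (0.95 and 1.06) rose with both. The 6 blood and microglia markers with an interval, mostly CSF1R and CD68, came to 272.3 to 296.9, 234.5 to 254.8 and 297.5 to 334.1 CPM in the same order. Of these, 3 of 6 had a median of at least 10 reads. Within the list CSF1R went from 223.7 to 257.3 CPM to 149.5 to 171.7 with siRNA-2, and CD68, a lysosomal gene, from 34.8 to 41.6 to 146.3 to 178.2. The 4 endothelial markers summed to 30.7 to 34.7, 31.5 to 38.1 and 27.1 to 32.1 CPM, the 4 epithelial ones to 15.7 to 24.5, 29.5 to 43.6 and 27.1 to 34.9, and the 5 neuron and oligodendrocyte ones with an interval to 2.59 to 4.61, 2.64 to 5.71 and 2.46 to 3.51. No list of markers had a member at 0 in all libraries.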

How the data were processed

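The transcriptome was sequenced in 12 A172 libraries, 4 per group. The deposited table holds raw counts of reads per interval, not normalized. The authors' processing notes name Salmon and hg38, with no version, and no source used here says which tool counted the reads. An interval takes in the whole gene, introns too, and reads in an overlap count for each interval on either strand.

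Left out were 962 ultraconserved and random regions and 4436 gene intervals, among them 1980 reaching over 100 kb beyond the gene, 1197 with the same counts as an overlapping interval and 1088 under an older name. This left 44333.

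The test was edgeR 4.0.16 in R 4.3.3. It used TMM factors, filterByExpr at a count of 10 and a total of 15, and a quasi-likelihood model (robust) in which the 12 libraries differ by group alone. Tests were two-sided, with Benjamini-Hochberg adjustment at 0.05. Each SE is the size of the log2 fold change over the root of its F statistic. Tested on simulated data for siRNA-1 against scrambled, over 24313 genes, it found 39 of 50 genes changed by 1.25-fold and 46 of 50 changed by 1.5-fold. The changed genes were drawn above a minimum level, and all others were left unchanged, of which 8 were called. In the data 53.5% of tested genes were called, so these rates may not carry over to it.

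Gene lists and the 9 genes were chosen with earlier results of these data known. Named from each list are up to 4 called genes of smallest p for the mean of both siRNAs, genes called in opposite directions, the 3 genes most like each of the 8, and overlapping genes; USP18, CSF1R, CD68 and S100B were named after their values were seen, IFNLR1 and the interferon genes for their roles. Some genes of the pathway are not reported here. Alternatives were DESeq2 1.42.0 and its size factors in edgeR, other filters, protein-coding intervals only, reads of inner intervals taken off, only the groups compared, a replicate block and leaving out each library. Python 3.11.15 was used for summaries and plots.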

Additional observations from a re-analysis of the deposited data

Results flagged for a closer look

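Among 111 groups of 4 libraries (each gene named by rule in each group), 7 held a library far from the other 3, where chance flags about 1 in 20. IFNGR1 was at 29.7 CPM in siRNA-1 replicate 3, the library with the most ribosomal RNA, against 33.2 to 33.7 in the others of its group. IRF8 was at 0.444 CPM in siRNA-2 replicate 2, against 0.652 to 0.664, and PTPN11 at 89.4 in the same library, against 86.4 to 86.6. SOCS1 was at 1.86 CPM in scrambled replicate 4, against 2.27 to 2.32. WARS1 was at 119.0 CPM in siRNA-1 replicate 4, against 108.3 to 109.6. NLRC5 was at 47.5 CPM in siRNA-2 replicate 1, against 50.5 to 50.8, and GBP4 at 13.6 in siRNA-2 replicate 4, against 10.9 to 11.3.

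The 2 siRNAs name the same target, and 4 of the 8 genes differed between them by the edgeR test of that difference. In this comparison 32.6% of all tested genes were called, and 50.4% of those of log2 CPM 4 or more. The count therefore does not set the 8 apart. The log2 fold change of siRNA-2 against siRNA-1 was -0.18 for IFNAR1, -0.30 for IFNAR2, -0.10 for JAK1 and 0.19 for IRF1, and that of JAK1 was lost under most alternatives.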

How the results depend on the processing

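No result for the 8 genes turned its direction while called: of 568 values recomputed, 540 kept their side of the threshold, 23 lost it and 5 passed it. The number called higher with siRNA-1 went from 5 to 3 with no filter on low counts, to 3 with protein-coding intervals only and to 3 without scrambled replicate 1, since IFNAR2 and TYK2 missed the threshold there, and it ran from 3 to 5 over the alternatives that leave out 1 library. IFNAR2 with siRNA-1 was then 0.13 (edgeR adjusted p = 0.0719), 0.11 (0.0605) and 0.12 (0.0584), and its range over 17 alternatives was 0.10 to 0.16. TYK2 with siRNA-1 ranged from 0.06 to 0.12 and JAK1 with siRNA-2 from -0.11 to -0.05, the latter called lower in 5 of 17. JAK1 between the siRNAs ranged from -0.13 to -0.08. STAT2 stayed called at 1.22 to 1.44 and 1.30 to 1.49. Genes called with siRNA-1 numbered 12446 to 12800 over the libraries left out, and 9599 to 13294 under the other alternatives, the lowest with protein-coding intervals only, where fewer genes were tested. The replicate numbers do not pair libraries: deviations of 12 same-number pairs correlated at -0.121 to 0.096, and no library correlated best with its own number. With the numbers as a replicate block, 13198, 13897, 14324 and 8018 genes were called, against 13294, 13952, 14400 and 8105 without it. Leaving out scrambled replicate 1, siRNA-1 replicate 3 and siRNA-2 replicate 2 together was chosen after seeing the data. The mean of both siRNAs uses all 3 groups, so no fit of only the groups compared was run for it. Exact tests of 3 against 4 libraries cannot go below 0.0571, so ratios were not recomputed without single libraries. JAK2 had the fewest reads of the 8, 482 to 673 per library, and the interferon genes had too few to pass the filter on low counts. With no such filter, 1, 2 and 2 of the interferon genes were called higher with siRNA-1, siRNA-2 and the mean of both. That fit tested 39428 genes. Under the alternatives that include it, at most 13294, 13952 and 14564 genes were called in the same order. Its own share is not given here, so these counts are not read as a result about the interferon genes.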
